A study of Mus musculus with 6 samples.

Results

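The transcripts described here encode the proteins of the large subunit of the cytosolic ribosome. They were taken from the table of all genes by symbol, as every gene named *Rpl* with a number and at most one further letter, together with *Rplp0*, *Rplp1* and *Rplp2*. The rule found 48 genes of 15707 listed, and it used no expression value. Of these, 46 encode the standard proteins of the subunit, and 2, *Rpl10l* and *Rpl39l*, encode paralogues known in mice for expression in male germ cells.

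The study compared *Btg4*-depleted oocytes with control oocytes at early metaphase II (MII), with 3 libraries of 50 pooled oocytes in each group. The first group was injected with siRNAs, short duplex RNAs by which a cell cuts the mRNA they match, against *Btg4*, and the second with control siRNAs. All follicles came from (C57BL x CBA) F1 females of 10 to 12 days, and spent 8 to 10 days in culture, after which their oocytes matured. cDNA was primed on poly(A) tails, so that the amount of an mRNA and the length of its tail cannot be told apart. In pooled oocytes, a difference in some oocytes and a smaller one in all cannot be told apart, nor can fewer cells of a type and less RNA per cell.

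Apart from the acidic stalk proteins, ribosomal proteins enter each ribosome in equal numbers. Growing oocytes build up a large store of ribosomes and of the mRNAs behind them, and transcription has ceased by the time meiosis resumes. From then on, mRNA levels depend on storage and decay, and removal of the poly(A) tail by the CCR4–NOT deadenylase, to which BTG4 binds, is the usual first step of decay. The large subunit joins amino acids at its peptidyl transferase centre, releases the chain through an exit tunnel, and recruits the elongation factors at a flexible stalk of acidic P proteins.

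The deposited values are the authors' mean FPKM (fragments per kilobase of transcript per M mapped fragments, where M is the SI prefix mega) of the 3 libraries in each group. The table gives no value of a single library, which leaves every level without a replicate error and every difference without a test. *Btg4* itself was at 39.3 FPKM in *Btg4*-depleted oocytes and 1766 in control oocytes. A TMM scaling (trimmed mean of the log2 ratios) of the group means gave an offset of 0.16 to the log2 ratio of *Btg4*-depleted to control oocytes, and a pseudocount of 1 FPKM was then added, which makes the shift smaller for low genes. For 10012 genes the mean of both groups was at least 1 FPKM, and in these measured genes the median log2 ratio was -0.15 unscaled and -0.02 scaled, so that a ratio is relative to the median transcript. From the authors' mean normalized counts of 320 genes, the size of a library was estimated at 7.82 M fragments, with 90% of these genes giving 6.92 to 8.12 M. The 10 oocyte markers examined were all measured, with 291 to 4440 FPKM in *Btg4*-depleted and 371 to 5445 FPKM in control oocytes. Of 12 granulosa and cumulus cell markers 7 were listed, with *Amh* and *Foxl2* among those not listed. The summed level of the 7 was 22.3 FPKM in *Btg4*-depleted and 26.8 FPKM in control oocytes. Single markers differed in direction, with *Cyp19a1* at 5.87 and 14.8 FPKM and *Inha* at 12.0 and 8.20 FPKM. The sum was 1.63 and 2.02 FPKM for the 5 listed of 6 theca and stroma markers. For the 3 listed of 6 blood and endothelium markers it was 8.66 and 27.5 FPKM, nearly all *Pecam1*. The part of these cells in the results was not tested.

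Most large-subunit transcripts were higher in the *Btg4*-depleted group. All 48 were measured. Scaled ratios were above 0 for 43 and below 0 for 5, against 49.4% above 0 among all measured genes. By the scaled ratio, 26 of 48 (54.2%) were at least 2-fold higher, compared with 19.5% of all measured genes and 31.1% of those in the length range of the members. With the trend of the ratio on transcript length removed, 12 of 48 were at least 2-fold higher (14.8% of all measured genes). The median log2 ratio of the members was then 0.54. Without that correction, none was at least 2-fold lower, compared with 11.4% of all measured genes. Over all measured genes, 1953 were thus at least 2-fold higher and 1140 lower, and without scaling 1617 and 1677 (16.2% and 16.7%). The median log2 ratio of the 48 was 1.13 (2.19-fold), with quartiles at 0.68 and 1.61. Unscaled and with the pseudocount, 24 members were at least 2-fold higher and none at least 2-fold lower (*Rpl22* was at -0.98, and at a fold of 0.476 without the pseudocount), 42 had ratios above 0 (44.4% of all measured genes), and the median was 0.97. Together, the 48 transcripts held 0.865% of summed FPKM in *Btg4*-depleted oocytes and 0.463% in control oocytes, a ratio of 1.87. Leaving *Ccdc82* and *Ubb*, both higher in *Btg4*-depleted oocytes, out of the sum gave 0.989% and 0.476%.

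**Figure D1:**
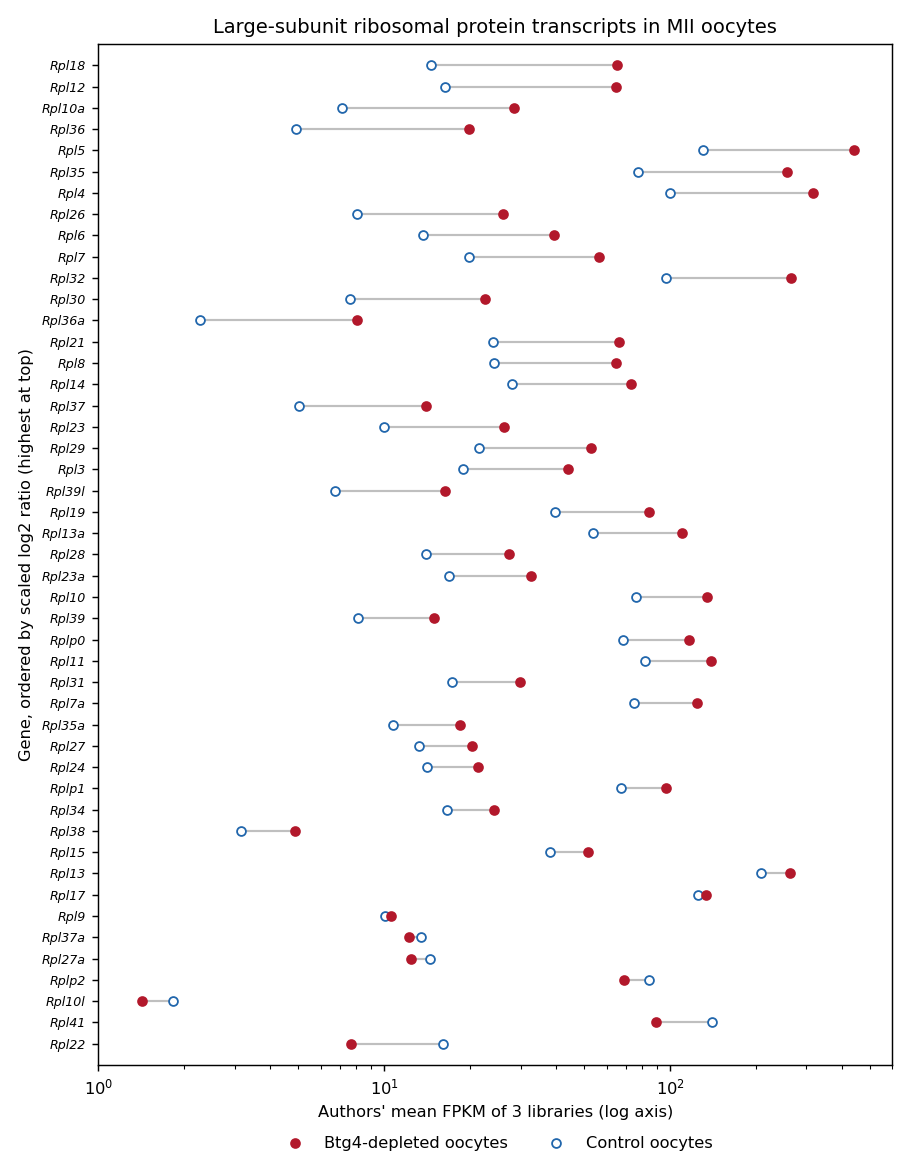
Authors' mean FPKM (log axis) of 47 of the 48 large-subunit transcripts in *Btg4*-depleted oocytes (filled points) and control oocytes (open points), in the order of the scaled log2 ratio. Each point is the mean of 3 libraries, without an error; filled points lie right of open ones down to *Rpl9*, and left of them for the bottom 6 genes, from *Rpl37a* to *Rpl22*.

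The highest ratios belonged to *Rpl18*, *Rpl12*, *Rpl10a*, *Rpl36*, *Rpl5* and *Rpl35*. *Rpl18* was at 65.1 FPKM in *Btg4*-depleted and 14.6 FPKM in control oocytes, a log2 ratio of 2.24. *Rpl36* was at 19.8 and 4.92 FPKM (log2 ratio 1.96), which at its length of 425 bases comes to an estimated 65.8 and 16.4 fragments per library. The control levels of *Rpl18* and *Rpl36* thus lie below the median member, which had an estimated 141 fragments in control oocytes. *Rpl5* combined a high ratio with the highest level of all large-subunit transcripts after depletion. It was at 442 FPKM in *Btg4*-depleted and 130.5 FPKM in control oocytes (log2 ratio 1.91), or about 7036 and 2078 fragments per library.

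At the other end, 6 transcripts had a lower group mean in *Btg4*-depleted oocytes before scaling. The protein encoded by *Rpl22* sits near the tunnel exit and is known in mice for its role in T cell development. *Rpl22* was at 7.66 FPKM in *Btg4*-depleted and 16.1 FPKM in control oocytes, a log2 ratio of -0.83. *Rpl41*, which encodes a very small basic protein at the subunit interface from a reading frame of only 78 bases, was at 89.1 and 141 FPKM (log2 ratio -0.49). *Rplp2*, one of the acidic stalk proteins, was at 68.8 and 84.1 FPKM (log2 ratio -0.12), and the paralogue *Rpl10l* at 1.42 and 1.83 FPKM (log2 ratio -0.12). The last value rests on an estimated 12.3 and 15.9 fragments per library. *Rpl27a* followed with a log2 ratio of -0.06, and *Rpl37a* had 0.02 after scaling and -0.13 before.

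Transcripts that encode ribosomal proteins typically begin with a tract of pyrimidines (C or T), the terminal oligopyrimidine motif, through which mTORC1 and LARP1 act on their translation and stability. The longest unbroken run of C or T on the transcribed strand, from 30 bases before to 50 after the RefSeq start, was therefore compared over genes. A start was found for 36 of the 48 members, 5 of them with more than 1, and the start with the longest run was used. The run reached 8 bases in 30 of 36 members (83.3%), compared with 30.1% of 8105 measured genes with a start and 32.3% of all 27025 genes in the promoter table. Its median length was 11 bases in the members and 6 in the measured genes. To show the runs at both ends of the range of ratios, the longest (capitals) is printed within 30 bases for the members with the highest and then the lowest ratios that had a start, from RefSeq on GRCm38.p6.
*Rpl18* (chr7:45718062-45718091, plus strand): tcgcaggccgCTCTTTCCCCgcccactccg
*Rpl12* (chr2:32961732-32961761, plus strand): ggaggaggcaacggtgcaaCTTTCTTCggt
*Rpl10a* (chr17:28328572-28328601, plus strand): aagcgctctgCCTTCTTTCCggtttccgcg
*Rpl5* (chr5:107900498-107900527, plus strand): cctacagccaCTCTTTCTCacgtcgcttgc
*Rplp2* (chr7:141447636-141447665, plus strand): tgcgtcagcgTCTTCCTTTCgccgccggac
*Rpl10l* (chr12:66284394-66284423, minus strand): acagaaatttggCCTCCattttgcggctgg
*Rpl41* (chr10:128549119-128549148, minus strand): cgccattaaatagcagtaggCCTCCCTCTC
*Rpl22* (chr4:152324414-152324443, plus strand): atatcagcgctgCTTCTggaatgttccagc

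All 4 members at the high end hold a run of 8 to 10 bases of mixed C and T. Counted from 1 at the annotated start, with negative positions before it, these runs begin at position 2 in *Rpl18*, 18 in *Rpl10a*, 40 in *Rpl12* and -20 in *Rpl5*, so that only that of *Rpl18* lies next to the annotated start. At the low end, *Rplp2* holds a run of 10 bases that begins at position -5 and spans the annotated start. *Rpl41* holds 10 bases from position 41 to the end of the window, so that its run may be longer. *Rpl10l* and *Rpl22* have no run above 5 bases. Members with a run of at least 8 bases had a median log2 ratio of 1.02, with 15 of 30 at least 2-fold higher. The 6 members without one had a median of 0.73, with 1 at least 2-fold higher. Over the measured genes with a start the medians were -0.08 with such a run and 0.01 without. Of all measured genes, 19.5% were at least 2-fold higher. Across the 36 members, the length of the run and the ratio were not related in rank (Spearman's rho 0.10, across genes of the same libraries). The RefSeq start need not be the start used in the oocyte, and a run is a match of letters.

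By place in the subunit, the ratios of partners often differed. RPL5 and RPL11 assemble with the 5S ribosomal RNA into the 5S particle, which also binds MDM2 when ribosome assembly fails. *Rpl5* had the log2 ratio of 1.91 given above, while *Rpl11* was at 139 FPKM in *Btg4*-depleted and 81.7 FPKM in control oocytes, a log2 ratio of 0.92. The pair thus stood at 442 against 139 FPKM in *Btg4*-depleted oocytes and at 130.5 against 81.7 FPKM in control oocytes.

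The acidic proteins of the stalk are RPLP0, the anchor, and RPLP1 and RPLP2, which bind to it as dimers and recruit the GTPases of elongation, and RPL12 lies at its base. *Rpl12* was at 64.9 FPKM in *Btg4*-depleted and 16.4 FPKM in control oocytes (log2 ratio 2.08). *Rplp0* was at 117 and 68.4 FPKM (log2 ratio 0.93). *Rplp1* was at 96.5 and 67.3 FPKM (log2 ratio 0.68). With *Rplp2* at -0.12, the log2 ratios of these 4 genes run from -0.12 to 2.08, and those of the acidic proteins lie below the member median of 1.13. In control oocytes *Rplp2* was above *Rplp1* and *Rplp0*, and in *Btg4*-depleted oocytes it was the lowest of the acidic ones.

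Around the peptidyl transferase centre, *Rpl8* was at 64.9 FPKM in *Btg4*-depleted and 24.2 FPKM in control oocytes (log2 ratio 1.55), and *Rpl3* at 44.1 and 18.9 FPKM (log2 ratio 1.34). *Rpl10*, whose protein joins late in assembly and reaches into the catalytic centre, was at 135 and 76.2 FPKM (log2 ratio 0.98). All 3 were higher in *Btg4*-depleted oocytes, 2 of them at least 2-fold, where 49.4% and 19.5% of all measured genes were. *Rpl10a*, which encodes the protein of the L1 stalk beside the site where spent tRNA leaves, was at 28.5 and 7.15 FPKM (log2 ratio 2.01).

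The exit tunnel group, 9 genes for proteins that line the tunnel or ring its exit, ran from the lowest ratio of all members to 1.89. *Rpl4*, whose protein reaches into the tunnel wall, was at 315 FPKM in *Btg4*-depleted and 100.1 FPKM in control oocytes (log2 ratio 1.81). *Rpl17*, whose protein forms the constriction of the tunnel together with RPL4, was at 134 and 125 FPKM (log2 ratio 0.25). In control oocytes *Rpl17* was thus the higher of the pair, and in *Btg4*-depleted oocytes *Rpl4* was. At the rim, where the signal recognition particle and the nascent polypeptide-associated complex dock, *Rpl35* was at 258 and 77.0 FPKM (log2 ratio 1.89). *Rpl26* was at 26.1 and 8.04 FPKM (log2 ratio 1.73), *Rpl19* at 84.3 and 39.4 FPKM (1.24), and *Rpl23a* at 32.7 and 16.9 FPKM (1.07). *Rpl39*, in the narrow lower tunnel, was at 14.9 and 8.13 FPKM (0.95), and *Rpl31*, at the rim, at 30.0 and 17.3 FPKM (0.91). With *Rpl22*, 8 of the 9 had ratios above 0 and 5 were at least 2-fold higher, with a median of 1.07. Over all measured genes, 49.4% had ratios above 0 and 19.5% were at least 2-fold higher.

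**Figure D2:**
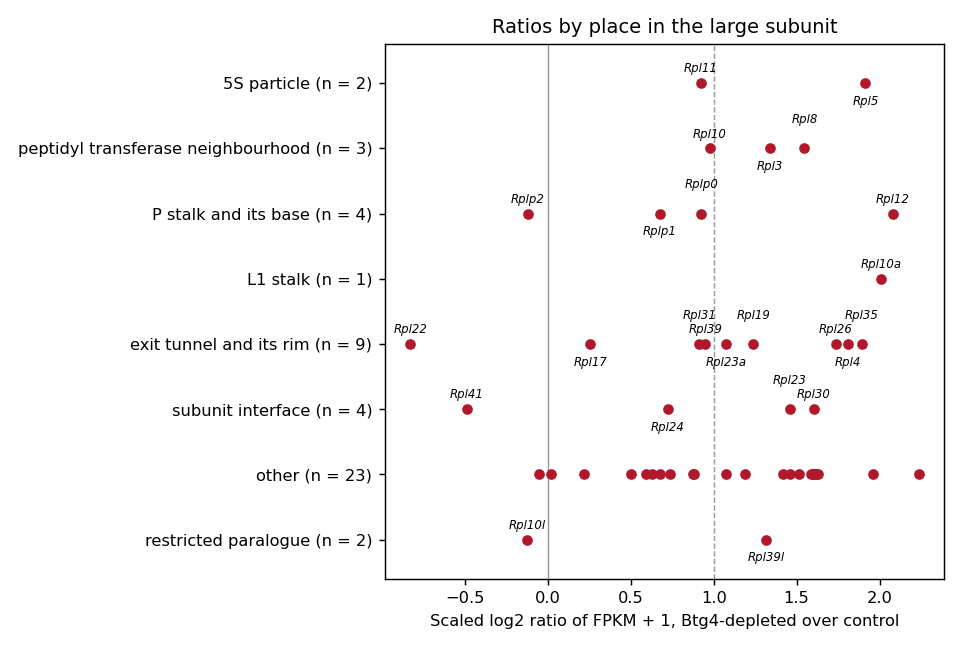
Scaled log2 ratio (*Btg4*-depleted to control oocytes, pseudocount of 1 FPKM) of each large-subunit gene by the place of its protein in the subunit. A point is 1 gene, and the dashed line marks a 2-fold higher scaled ratio. The exit tunnel group spans from -0.83 (*Rpl22*) to 1.89 (*Rpl35*) and the stalk group from -0.12 (*Rplp2*) to 2.08 (*Rpl12*).

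At the interface with the small subunit, *Rpl30* was at 22.6 FPKM in *Btg4*-depleted and 7.61 FPKM in control oocytes (log2 ratio 1.60). *Rpl23*, whose protein is the docking site of the anti-association factor eIF6, was at 26.2 and 10.0 FPKM (log2 ratio 1.46). *Rpl24* had a ratio of 0.72 and *Rpl41* one of -0.49. The 23 members not assigned to a place had a median log2 ratio of 1.19. Over all measured genes 19.5% were at least 2-fold higher and 49.4% above 0, and of these 23 members 13 and 22 were. Among them were *Rpl32*, at 265 and 96.7 FPKM (log2 ratio 1.61), and *Rpl13*, at 262 and 208 FPKM (0.50). *Rpl38*, known in mice for its part in the translation of *Hox* mRNAs, was at 4.87 and 3.15 FPKM (0.63), which is only an estimated 11.9 and 7.72 fragments per library. *Rpl6*, *Rpl7*, *Rpl21*, *Rpl14* and *Rpl29* had ratios between 1.42 and 1.62, with levels of 39.2 to 73.1 FPKM in *Btg4*-depleted and 13.6 to 28.0 FPKM in control oocytes. *Rpl13a*, known in human monocytes for silencing inflammatory transcripts after its release from the ribosome, was at 110.4 and 53.6 FPKM (1.19). *Rpl35a*, one of the genes mutated in human Diamond–Blackfan anaemia, was at 18.4 and 10.7 FPKM (0.88), and *Rpl7a* at 124 and 74.9 FPKM (0.88). *Rpl27*, *Rpl34* and *Rpl15* had ratios of 0.73, 0.68 and 0.59, and *Rpl9*, at 10.5 and 10.0 FPKM, one of 0.21. *Rpl37* was at 14.0 and 5.03 FPKM (1.46) and *Rpl28* at 27.3 and 14.0 FPKM (1.07). The unassigned members thus ran from -0.06 (*Rpl27a*) to 2.24 (*Rpl18*).

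FPKM is scaled to the deposited transcript length, and levels of different members are set side by side here on that scale only. The 3′ end counted, priming on poly(A) tails and reads shared with pseudogenes may each alter a level, which was not tested. In *Btg4*-depleted oocytes the highest were *Rpl5*, *Rpl4*, *Rpl32*, *Rpl13* and *Rpl35*, which held 41.7% of the members' summed FPKM. In control oocytes *Rpl13*, *Rpl41*, *Rpl5*, *Rpl17* and *Rpl4* were highest and held 37.2%. *Rpl41* was at rank 13 in *Btg4*-depleted and rank 2 in control oocytes, and *Rpl13*, the first of the control ranking, was at rank 4 after depletion. Levels reached 100 FPKM for 11 members in *Btg4*-depleted and for 5 in control oocytes, and stayed under 10 FPKM for 4 and 10. At least 100 estimated fragments per library stood behind 38 members in *Btg4*-depleted and 27 in control oocytes. The median level was 47.8 FPKM in *Btg4*-depleted and 17.1 FPKM in control oocytes, compared with 9.68 and 9.70 FPKM over all measured genes. The FPKM of the members were thus far from equal, and log2 FPKM had an SD over members of 1.69 in *Btg4*-depleted and 1.64 in control oocytes. The order of the levels was largely shared by both groups (Spearman's rho 0.91 across the 48 genes).

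The members are short, and short transcripts as a whole had higher ratios. Their median length was 762 bases (range 313 to 2199), compared with 2684 bases for all measured genes, and across all measured genes the log2 ratio and the length had a Spearman's rho of -0.33 (genes are not independent replicates). Among the 3883 measured genes in the length range of the members, 31.1% were at least 2-fold higher, 7.62% at least 2-fold lower and 64.9% above 0, and the median log2 ratio was 0.45. For the 3432 that also lie in the level range of the members, these shares were 32.3%, 7.49% and 65.9%, and the median was 0.48. Between 500 and 1000 bases, where 25 members lie, 14 of the 25 were at least 2-fold higher with a median of 1.24, compared with 38.3% and a median of 0.64 for all 789 measured genes of that length. At 500 bases or less, 4 of 9 members were at least 2-fold higher (median 0.95), beside 36.1% of 72 measured genes (median 0.60). With a loess trend of the ratio on length removed, 12 of 48 members were at least 2-fold higher (14.8% of all measured genes) and 2, *Rpl41* and *Rpl22*, at least 2-fold lower (12.2%), 38 were above 0 (47.4%), and the member median was 0.54. The log2 ratios of *Rpl13* (-0.12), *Rpl38* (-0.07), *Rpl17* (-0.37), *Rpl9* (-0.41) and *Rpl37a* (-0.63) were then below 0. Within the members, the ratio showed no relation to length (Spearman's rho 0.06 across 48 genes).

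**Figure D3:**
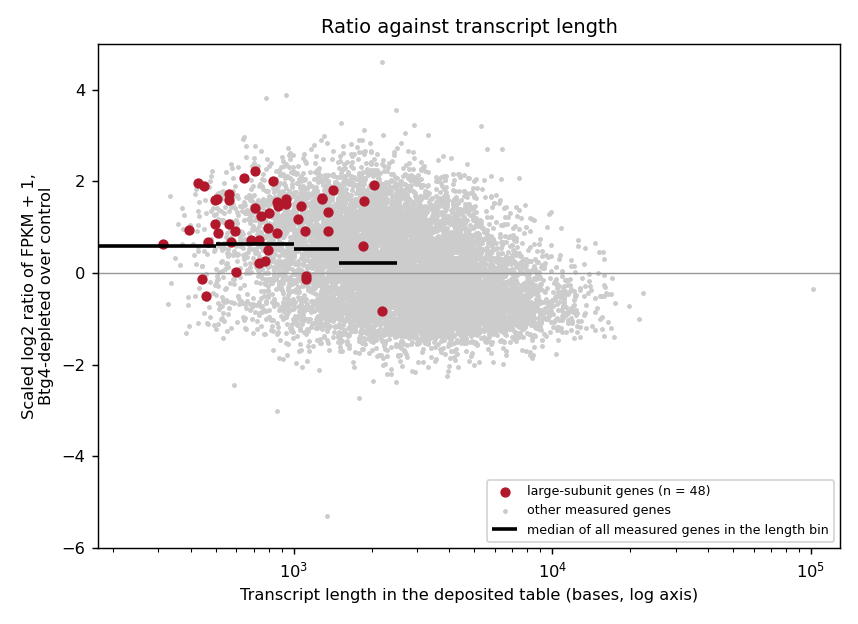
Scaled log2 ratio (*Btg4*-depleted to control oocytes, pseudocount of 1 FPKM) against transcript length in bases (log axis) for the 48 large-subunit genes (red) and all other measured genes (grey). Black bars give the median of all measured genes in 4 length bins, 0.60, 0.64, 0.52 and 0.22 from short to long; most red points lie above them.

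The 3′ end, where deadenylation acts, also differs from that of most genes. The 3′ UTR was taken from the complete GENCODE M21 transcript with an annotated coding part that was closest in length to the deposited one. Its median length was 98.5 bases in the members and 911 bases over 9630 measured genes. The 3′ UTR was under 150 bases in 27 of 48 members, compared with 9.58% of measured genes. Of these 27, 15 were at least 2-fold higher and the median log2 ratio was 1.07, while of the 845 measured genes with a 3′ UTR that short, leaving out those without one, 36.9% were at least 2-fold higher, with a median of 0.68. Cytoplasmic polyadenylation elements (TTTTAT or TTTTAAT, sense strand), through which CPEB extends tails during maturation, were searched for in the last 150 bases of the 3′ UTR. They were found in 8 of 48 members (16.7%), and in 25% of measured genes. Fewer bases were searched in a 3′ UTR shorter than that. Among 3′ UTRs under 150 bases, 2 of 27 members (7.41%) and 13.1% of 845 measured genes had one. *Rpl22*, *Rplp2*, *Rpl27a* and *Rpl37a*, all at the low end, are among the 8 members with an element. *Rpl41* (-0.49) and *Rpl10l* (-0.12), also at the low end, have none. The others with an element are *Rpl5*, *Rpl32*, *Rpl13a* and *Rpl31*, with ratios of 0.91 to 1.91. Whether an element goes with the ratio was not tested. The deposited length and that of the transcript used differed by at most 50 bases in 35 members. For the other 13, another 3′ end may have been counted. A choice by length alone may also take an isoform other than the main one. For *Rpl12*, the transcript used has a coding part of 255 bases and a 3′ UTR of 411 bases.

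Small-subunit genes gave ratios near those of the large subunit, and assembly factors lower ones. Over all measured genes, 19.5% were at least 2-fold higher and 11.4% lower, and in the length range of the large-subunit genes 31.1% and 7.62%. Small-subunit ribosomal protein genes, of which 32 were listed and measured, had a median log2 ratio of 1.06. Of these 32, 17 (53.1%) were at least 2-fold higher and none 2-fold lower. The highest ratio was that of *Rps7*, at 138 FPKM in *Btg4*-depleted and 30.1 FPKM in control oocytes (2.32). The 48 genes for the large subunit of the mitochondrial ribosome had a median of 0.79. Of these 48, 18 (37.5%) were at least 2-fold higher and 1, *Mrpl44*, 2-fold lower. Factors that assemble the large cytosolic subunit, which are longer (median 2586 bases), had a median of 0.19 over 38 measured genes. Of these 38, 4 (10.5%) were at least 2-fold higher. Among the assembly factors, *Mrto4*, which is replaced on the subunit by RPLP0, was at 73.7 and 19.9 FPKM (1.99). *Sbds*, which releases eIF6 from the subunit, was at 162 and 338 FPKM (-0.90). After removal of the length trend the medians were 0.54 for the large-subunit, 0.41 for the small-subunit and 0.55 for the mitochondrial large-subunit genes, and 0.03 for the assembly factors. The differences between these lists were not tested.

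**Figure D4:**
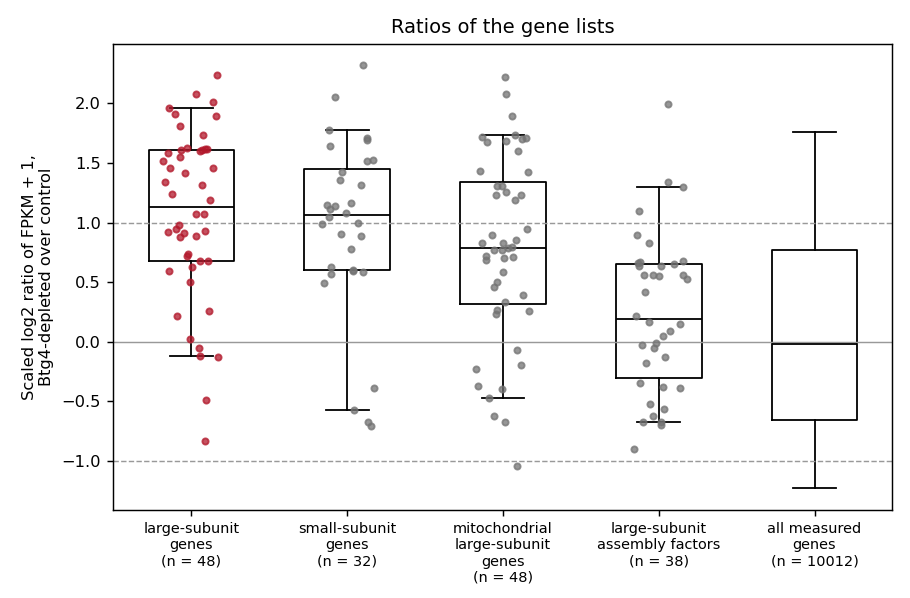
Scaled log2 ratio (*Btg4*-depleted to control oocytes, pseudocount of 1 FPKM) for the large-subunit genes, 3 related lists and all measured genes; boxes give the median and quartiles, whiskers the 5th to 95th percentile, and points single genes. The medians are 1.13, 1.06, 0.79, 0.19 and -0.02 from left to right, and dashed lines mark a 2-fold difference.

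Paralogues of the large subunit were at low to moderate levels. *Rpl39l* was at 16.3 FPKM in *Btg4*-depleted and 6.71 FPKM in control oocytes (log2 ratio 1.31), close to its standard counterpart *Rpl39* at 14.9 and 8.13 FPKM. *Rpl10l*, in contrast, was far below *Rpl10* in both groups. Outside the rule, *Rpl36al* was at 23.2 and 11.1 FPKM (log2 ratio 1.15) and so above *Rpl36a*, at 8.03 and 2.26 FPKM (1.60). *Rpl7l1* was at 7.24 and 2.98 FPKM (1.18) and *Rpl22l1* at 4.64 and 2.69 FPKM (0.74), where *Rpl22* had a ratio below 0. The values of *Rpl22l1* rest on only an estimated 17.3 and 10.1 fragments per library, and those of *Rpl36a* on 31.2 and 8.79. RefSeq names 198 pseudogenes after 39 of the 48 members, up to 23 for *Rpl31*, and how reads shared with such copies were assigned is not given in the sources used here, so single values of these genes are uncertain.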

How the data were processed

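RNA-seq compared 3 libraries of *Btg4*-depleted oocytes with 3 of control oocytes, grouped by their labels. FPKM of each library were averaged within a group by the authors, and these means and the transcript length were deposited. BWA and mm9 stand in the submitters' processing notes, while the counting program, the annotation and the versions of both were not given in the sources used here. The deposited lists of called genes hold fold changes, test scores, p-values and probabilities of the authors' comparisons, which were not used. From the DESeq2 lists only the mean normalized count over all libraries (a signal deposited by the authors) was taken, to estimate the library size as the median of this count divided by mean FPKM and length in kilobases.

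TMM scaling trimmed 30% of ratios and 5% of levels on each side. The scaling was split evenly between the groups, a pseudocount of 1 FPKM was added, and genes with a mean of both groups of at least 1 FPKM were kept. A 2-fold ratio was the limit for counts. With 1 value a group, no standard error or p-value was computed. As alternatives, ratios were left unscaled, scaled by their median or taken after quantile normalization, with a pseudocount of 0.5 or 0.1, unfiltered or from 5 FPKM upwards, and with a loess trend on log2 length subtracted (span 30%). Simulated group means with known ratios were used to test the computations.

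Members were matched to RefSeq starts (GRCm38.p6) and to complete GENCODE M21 transcripts by Entrez identifier, and 96.2% of measured genes had a transcript. Every member could be named, with full values by place in the subunit and at the ends of the ranking, and other genes only as paralogues or as up to 4 of each list with the highest and lowest ratios. The values of some single genes are not reported here, while counts and medians include them. The members, lists and rules were chosen with earlier results of these data known. Tables were handled with pandas 2.3.3 and numpy 2.4.6, statistics with scipy 1.17.1 and statsmodels 0.14.6, and plots with matplotlib 3.10.9, under Python 3.11.15.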

Additional observations from a re-analysis of the deposited data

How the results depend on the processing

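The large-subunit genes kept a positive median and no more than 2 members at least 2-fold lower under the alternatives run. Without scaling, the median log2 ratio was 0.97 for the large-subunit genes, 0.91 for the small-subunit genes, 0.026 for the assembly factors and -0.15 for all measured genes, and with quantile normalization it was 0.95 for the small-subunit genes. With the length trend removed, it was 0.54, 0.41 and 0.026 for these 3 lists, and 12 large-subunit genes were at least 2-fold higher and 2 at least 2-fold lower. Without the filter, 13.0% of all listed genes were at least 2-fold higher. Of the 27 members with at least 100 estimated fragments in both groups, an alternative chosen after seeing the data, 14 were at least 2-fold higher, with a median of 1.19. In the main setting, 19.5% of all measured genes were at least 2-fold higher. No member with a ratio of at least 2-fold changed direction under these settings, but 5 with smaller positive ratios (*Rpl13*, *Rpl38*, *Rpl17*, *Rpl9* and *Rpl37a*) were below 0 with the length trend removed, and *Rpl37a* also unscaled and after quantile normalization. No paired analysis was possible because the table holds group means, and for the same reason no library could be left out. The error between libraries is therefore unknown, and estimated fragments cover counting only.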

Other observations

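Some copies of large-subunit genes are listed separately, and are named here after their values were seen. *Rpl37rt*, a retrotransposed copy of *Rpl37*, was listed at 41.4 FPKM in *Btg4*-depleted and 45.3 FPKM in control oocytes (log2 ratio 0.03), above *Rpl37* itself at 14.0 and 5.03 FPKM (1.46). *Rpl14-ps1*, a pseudogene, was at 41.9 and 22.6 FPKM (1.02), beside *Rpl14* at 73.1 and 28.0 FPKM (1.51). How reads were divided between copy and parent was not tested. *Rplp2-ps1* and *Rpl31-ps12* were below 1 FPKM on average over both groups.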
